A study of Mus musculus with 57 samples.

Results

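Genes of the respiratory chain and the citrate cycle were examined at their promoters in brain cortex and gastrocnemius muscle of PSAPP mice. The set held 41 of the 24963 autosomal genes with a curated transcription start site (TSS) in RefSeq. Its members were the listed nuclear, autosomal genes of respiratory complexes I to IV and of the citrate cycle. They were chosen by function and not by their signal, but with earlier results of these data known. By role, 18 encoded complex I subunits, 4 complex II, 5 complex III, 11 complex IV (the Cox genes and Ndufa4) and 3 the citrate cycle enzymes Cs, Idh3a and Mdh2.

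The respiratory chain passes electrons from NADH and succinate to oxygen and pumps protons across the inner mitochondrial membrane, and the citrate cycle feeds it. Complex II, succinate dehydrogenase, belongs to both. Nearly all of these subunits are needed in every cell, but cytochrome c oxidase (complex IV) has several subunits in paired forms, one used in most tissues and one in heart or skeletal muscle. H3K4me3 marks active promoters, H3K27ac active promoters and enhancers, and H3K27me3 is laid down by Polycomb at silenced genes.

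PSAPP mice, a model of Alzheimer's disease, carried mutant human presenilin 1 and a chimeric mouse/human APP transgene and were killed at 13 months, after single housing on a modified AIN-93 diet. ChIP-seq gave 9 cortex and 10 gastrocnemius libraries per mark, 57 in all, from 10 mice, of which 9 gave both tissues. No non-transgenic group was analysed here, so each comparison is between tissues of transgenic mice. Both sexes were used, and the labels give no sex per library. The deposited autosomal peaks held 9025744 to 18622389 reads per library for H3K4me3, 3903965 to 27042958 for H3K27ac and 2994110 to 18236388 for H3K27me3. The lowest H3K27ac total belonged to cortex replicate 9; the next lowest cortex library held 14279570 reads. Tissue labels were checked with H3K4me3 at marker promoters. Of 7 fast and general fibre markers, 7 had a peak in every gastrocnemius library and 5 (Ckm, Myh4, Myh1, Tnnt3, Tnni2) in no cortex library. Of 6 neuronal markers, 5 had a peak in every cortex library and 4 (Snap25, Rbfox3, Gad1, Neurod6) in no gastrocnemius library. Other cell types moved with tissue as well: the summed H3K4me3 signal over 3 endothelial markers was 14.9 to 20.8 RPM (reads scaled to the library total) in cortex and 37.5 to 65.0 in gastrocnemius, and over 3 fibroblast markers 7.37 to 16.8 and 31.0 to 45.6. Pax7, a satellite cell marker, gave 0 in cortex and 5.61 to 11.3 in gastrocnemius, and 3 microglial markers at least 6.90 in cortex and 0 to 2.27 in gastrocnemius. The sums for astrocytes, oligodendrocytes, slow fibres and adipocytes overlapped between tissues. The part of these cells in the values below was not tested. In bulk tissue, more cells with a mark and more mark per cell cannot be told apart.

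The muscle forms of 3 complex IV subunits carried H3K4me3 mainly in gastrocnemius. Cox6a2, the heart and muscle form of subunit VIa, had an H3K4me3 peak within 1 kb of its TSS in 0 of 9 cortex and 10 of 10 gastrocnemius libraries. Cox8b, the muscle form of subunit VIII, gave the same counts. Both differences passed Fisher's exact test (two-sided p = 1.08e-05, FDR = 0.000228 over 16699 TSSs called in at least 1 library). They were the only 2 members to pass, both more often called in gastrocnemius, where 3.41% of all TSSs were, against 5.01% more often called in cortex. Cox7a1, the muscle form of subunit VIIa, had a peak in 7 of 9 cortex libraries and in all 10 of gastrocnemius (exact p = 0.211, FDR = 1). The other 38 members had an H3K4me3 peak in every library of both tissues. A missing peak is not a count of 0, since only enriched regions are listed: the smallest H3K4me3 peaks held 15 to 24 reads in the cortex libraries.

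Signal at these promoters was read as a normalised read count. Each peak's reads were spread evenly along it, those falling within 1 kb of the TSS were taken, and they were scaled to RPM of the library's autosomal peak reads with TMM factors. For Cox7a1 the H3K4me3 count had a lowest, median and highest value of 0, 2.65 and 4.13 in cortex and of 12.7, 16.5 and 21.8 in gastrocnemius. The groups did not overlap. Against the 7 cortex libraries with a peak, gastrocnemius was 4.90-fold higher on the log2(value + 0.5) scale (exact permutation test, two-sided p = 0.000103). With the 2 uncalled libraries set to 0 it was 7.56-fold (p = 2.17e-05, the smallest it can give), a value that rests on those zeros and on the pseudocount. The peak was also short in cortex, 600 to 1400 bp, and long in gastrocnemius, 2400 to 9800 bp. In gastrocnemius, H3K4me3 at Cox6a2 was 30.8 ± 8.01 (SD, n = 10), with a range of 14.7 to 44.7. At Cox8b it was 22.0 ± 5.93 (SD, n = 10), with a range of 11.8 to 29.8.

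The ubiquitous partners carried H3K4me3 in both tissues. Cox6a1 had 55.0 ± 8.35 (SD, n = 9) in cortex and 51.7 ± 8.89 (SD, n = 10) in gastrocnemius, and the groups overlapped (log2 difference -0.09 ± 0.10 SE, edgeR FDR = 0.514). With whole peaks counted, the Cox6a1 difference was 0.40 and passed (FDR = 0.0204), higher in gastrocnemius. Cox7a2 was lower in gastrocnemius, 44.2 ± 6.65 against 54.6 ± 4.56 (log2 difference -0.30 ± 0.09 SE, FDR = 0.00661), but the log2 difference was 0.02 when whole peaks were counted. Of the 38 members with a peak in every library, Cox8a alone had more H3K4me3 reads in gastrocnemius by edgeR, 35.7 ± 6.41 against 30.8 ± 3.03 (log2 difference 0.21 ± 0.10 SE, FDR = 0.0846), and without TMM scaling the difference was -0.11. With other processing the number of such members ran from 0 (without TMM, against 11.3% of TSSs) to 21 (whole peaks, against 40.8%). The Cox8a call was also lost with whole-peak counts and in a 2.5 kb window. It was lost too without the libraries whose file names carry an extra code (FDR = 0.118) and with the replicate number as a block (FDR = 0.173). As a share of its partner's count within each gastrocnemius library, the muscle form stood at a median of 59.5% for Cox6a2, 37.3% for Cox7a1 and 58.7% for Cox8b. In cortex the same medians were 0%, 5.33% and 0%. These ratios are descriptions and were not tested.

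H3K27ac was less divided between the tissues at the same promoters. All 9 cortex libraries had an H3K27ac peak at Cox7a1 and at Cox8b and 8 of 9 at Cox6a2, although 2 of these genes had no H3K4me3 peak there. No member differed in H3K27ac calls (Fisher's exact test, 0 of 41 at FDR under 0.1 and 0 at an unadjusted p under 0.05), while 4.29% of TSSs were more often called in gastrocnemius and 9.28% in cortex. The read count did differ. At Cox8b the lowest, median and highest values were 3.58, 4.63 and 5.64 in cortex and 9.31, 11.6 and 13.1 in gastrocnemius, 2.51-fold higher with no overlap (log2 difference 1.33 ± 0.08 SE, edgeR FDR = 1.85e-11). At Cox7a1 they were 3.28, 4.64 and 7.13 in cortex and 6.48, 8.44 and 10.1 in gastrocnemius, 1.79-fold higher with overlapping ranges (FDR = 1.12e-05). At Cox6a2, cortex reached at most 3.53 and gastrocnemius at least 8.46, a 3.71-fold difference from the 8 cortex libraries with a peak on the log2(value + 0.5) scale (exact permutation test, two-sided p = 4.57e-05) and 4.52-fold with the other at 0. At the partners Cox6a1, Cox7a2 and Cox8a the H3K27ac window count did not pass (FDR = 0.457, 0.142 and 0.243). Counted by whole peaks, both Cox7a2 and Cox8a passed, with log2 differences of 0.39 (FDR = 0.000953) and 1.25 (FDR = 0.0260), the latter beside 1.19 for Cox8b and 1.35 for Cox7a1. At Cox8a, however, the peak was 94400 and 103600 bp wide in gastrocnemius replicates 3 and 6. It was 6800 to 10200 bp in the other gastrocnemius libraries and 4000 to 9600 bp in cortex. The part of these long peaks in the Cox8a value was not tested.

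**Figure D1:**
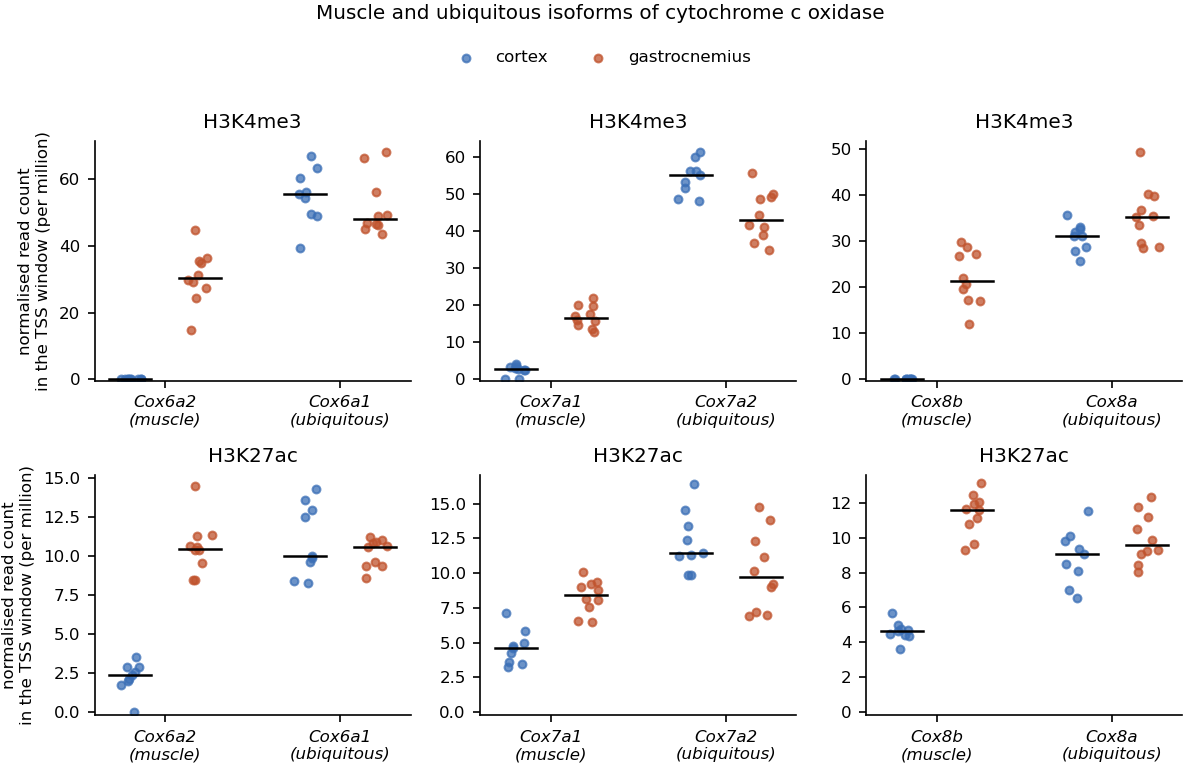
Normalised read counts (RPM, y axes, linear from 0) in the TSS window of each muscle isoform and its ubiquitous partner, with H3K4me3 above and H3K27ac below. Each point is 1 library (9 cortex, 10 gastrocnemius) and the black lines are medians. The muscle forms are higher in gastrocnemius in every panel, without overlap except for H3K27ac at Cox7a1, and the partners overlap between tissues.

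The promoter sequences of the isoforms are shown because they differ in the dinucleotide CpG, which marks the CpG-island promoters of broadly used genes. RefSeq promoter sequences (GRCm38.p6, 250 bases before to 50 after the start) were at hand for 30 of the 41 members; Cox6a2, Cox4i1, Uqcrb, Idh3a, Cyc1, Ndufs1, Ndufb9, Ndufa2, Sdhc, Uqcrc2 and Cox6c had none. The stretches below run from 180 bases before to 20 bases after the start, 5′ to 3′ on the gene's strand, with CpG in capitals. Cox7a1 lies at chr7:30183991-30184190 on the plus strand and Cox7a2 at chr9:79759834-79760033 on the minus strand. Cox8b lies at chr7:140900427-140900626 and Cox8a at chr19:7217597-7217796, both on the minus strand. Cox6a1 lies at chr5:115348939-115349138 on the minus strand.
Cox7a1: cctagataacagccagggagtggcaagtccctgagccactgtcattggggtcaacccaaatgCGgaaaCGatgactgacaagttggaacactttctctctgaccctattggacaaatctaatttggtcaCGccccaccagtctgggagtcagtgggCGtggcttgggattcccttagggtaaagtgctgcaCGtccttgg
Cox7a2: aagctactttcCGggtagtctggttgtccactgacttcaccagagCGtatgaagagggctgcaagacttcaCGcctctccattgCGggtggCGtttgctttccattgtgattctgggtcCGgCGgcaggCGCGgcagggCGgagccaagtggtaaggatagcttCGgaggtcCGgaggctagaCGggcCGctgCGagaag
Cox8b: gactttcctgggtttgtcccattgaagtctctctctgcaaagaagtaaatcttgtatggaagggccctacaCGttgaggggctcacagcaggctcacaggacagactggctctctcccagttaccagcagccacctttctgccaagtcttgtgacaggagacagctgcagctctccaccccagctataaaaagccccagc
Cox8a: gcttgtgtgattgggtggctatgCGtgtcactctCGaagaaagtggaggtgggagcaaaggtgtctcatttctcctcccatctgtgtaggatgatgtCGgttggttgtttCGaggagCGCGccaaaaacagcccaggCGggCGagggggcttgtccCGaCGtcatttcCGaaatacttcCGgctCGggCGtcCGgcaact
Cox6a1: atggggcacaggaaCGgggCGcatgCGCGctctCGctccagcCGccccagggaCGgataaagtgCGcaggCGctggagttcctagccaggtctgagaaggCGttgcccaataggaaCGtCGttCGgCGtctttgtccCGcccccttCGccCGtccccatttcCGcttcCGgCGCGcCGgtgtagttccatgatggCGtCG

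Cox7a1 and Cox8b were poorer in CpG than their partners; Cox6a2 had no sequence to compare. The printed stretch held 5 CpG for Cox7a1 and 1 for Cox8b, against 15 for Cox7a2, 15 for Cox8a and 24 for Cox6a1. Over the full 300 bases, the ratio of observed to expected CpG was 0.333 for Cox7a1 and 0.115 for Cox8b, and 0.833, 0.842 and 1.075 for Cox7a2, Cox8a and Cox6a1. The other members with a sequence spanned 0.482 (Ndufc2) to 1.14 (Cox5a), so that the 2 lowest of the 30 were the 2 without an H3K4me3 peak in every cortex library. A ratio above 0.6 was found for 25 of 30 members (83.3%) and for 37.1% of the 25748 autosomal promoters in the table.

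**Figure D2:**
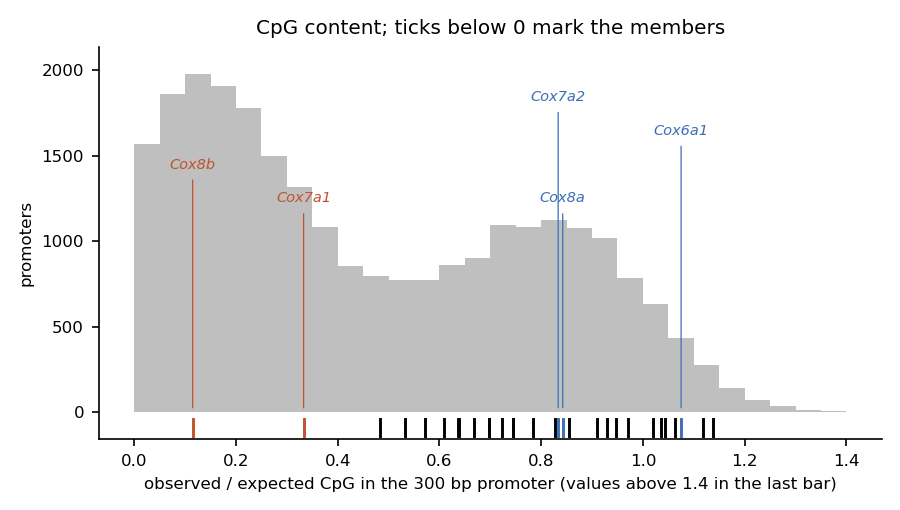
Histogram of the observed over expected CpG ratio (x axis, no unit) in 25748 autosomal RefSeq promoters of 300 bases, with the count of promoters on the y axis. Ticks under the bars mark the 30 members with a sequence, and labels mark the isoforms. Cox8b at 0.115 and Cox7a1 at 0.333 stand left of all other members.

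Short motifs were searched on both strands of the 300 bases, as letters only. The NRF1 core GCGCATGC, recognised by a regulator of many respiratory genes, was in 4 of 30 members (13.3%; Cox6a1, Ndufa8, Sdhb, Uqcrc1) and in 2.80% of all promoters. At Cox6a1 it spanned positions -162 to -155 from the start and overlapped its own reverse complement. CCGGAAG, bound by the ETS factor GABPA, was in 6 of 30 (20%), among them Cox6a1 and Cox8a, and in 9.29% of all promoters. AAGATGG (YY1) was in 13.3% against 6.51%, AAGGTCA (estrogen-related receptors) in 3.33% against 4.63%, and TAAAAATA (MEF2) in no member against 2.58%. Cox8b held CAGCTG, the E box of muscle regulatory factors, at -19 to -14, and TATAAA within its first transcribed bases. CAGCTG was in 4 of 30 members (13.3%; also Ndufa8, Ndufb10 and Ndufv2) and 16.2% of all promoters, and TATAAA in 2 of 30 (6.67%; also Ndufs7) and 14.2%. The shares were not matched for CpG, which differed between members and all promoters (median ratio 0.806 against 0.395). Both GCGCATGC and CCGGAAG hold a CpG. A match is only a description of letters and shows no binding.

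Polycomb marking was nearly absent from the set, with Cox6a2 as the main exception. An H3K27me3 peak overlapped the Cox6a2 window in 6 of 9 cortex and 0 of 10 gastrocnemius libraries (Fisher's exact test, two-sided p = 0.00310, FDR = 0.0180 over 10898 TSSs). This is the reverse of its H3K4me3 calls. The peaks were 3200 to 16000 bp wide and covered from 1035 bp to the whole of the window. Cox6a2 was the only one of 3 members with any H3K27me3 call to pass, among 10.2% of TSSs more often called in cortex and 13.4% in gastrocnemius. Ndufa9, a complex I subunit, was called in 0 of 9 cortex and 3 of 10 gastrocnemius libraries (exact p = 0.211, FDR = 0.458), where the edge of a wide peak covered 144 to 544 bp of the window. Cox8b was called in 1 gastrocnemius library. The other 38 members had no call in any of the 19 libraries. At least 3 libraries of a tissue were called at 26.2% of all TSSs in cortex and 29.2% in gastrocnemius, and at 1 member in each.

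Among the members with a peak everywhere, the plainest tissue difference was the width of the peak. H3K4me3 peaks were wider in gastrocnemius at 37 of 38 members and narrower at none (limma on log2 width, FDR under 0.1; 0 narrower at an unadjusted p under 0.05). This stood against a general shift, since 67.0% of 13419 TSSs tested were wider in gastrocnemius and 10.6% in cortex. The median fold was 1.54 over the members and 1.33 over all TSSs. A change of at least 1.5-fold was called at 21 of 38 members, against 32.5% of all TSSs wider and 5.75% narrower by that much. With each library centred on its own median width, which moved the median of all TSSs by -0.37 on the log2 scale, 20 members were wider and 1 narrower (Ndufb3, named after its value was seen), against 27.3% and 24.4% of TSSs. All gastrocnemius libraries lay above all cortex libraries at 11 of 38 members, against 9.93% of TSSs. Some deposited file names carry an extra code whose meaning the labels do not give, 2 of cortex and 4 of gastrocnemius for each mark. Without these coded libraries 35 members were wider, against 63.2% of TSSs in the same fit. Within them alone 4 were wider, against 10.7%, in a fit of few libraries.

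Members with wider H3K4me3 peaks belonged to every complex. Against 32.5% of all TSSs, at least 1.5-fold wider were 7 of 18 complex I genes, 3 of 4 of complex II, 3 of 5 of complex III, 5 of 8 tested of complex IV and 3 of 3 citrate cycle enzymes. Ndufs7, a complex I subunit that holds an iron-sulphur cluster, changed most by the fitted log2 difference (1.65 ± 0.27 SE, FDR = 1.88e-05). Its peak had a lowest, median and highest width of 2800, 3200 and 4200 bp in cortex and 5600, 7800 and 24800 bp in gastrocnemius. Gastrocnemius replicates 3, 4 and 6 had 22200 to 24800 bp and the others 5600 to 9600 bp. Every gastrocnemius library exceeded every cortex library there. Cyc1, cytochrome c1 of complex III, went from 2400, 3000 and 4200 bp to 3400, 12500 and 16600 bp (1.61 ± 0.26 SE, FDR = 2.28e-05), and the ranges overlapped. Ndufs8 and Ndufb9, both of complex I, followed with medians of 2600 and 2800 bp in cortex and 7600 and 7300 bp in gastrocnemius. At Ndufs8 the gastrocnemius widths were 10600 to 12200 bp in replicates 2 to 6 but 3200 to 4600 bp in the others. Its cortex widths were 2400 to 3200 bp. The groups did not overlap at Ndufb9 (2600 to 4400 against 5000 to 11400 bp). By the ratio of medians, Cyc1, Ndufs8 and Ndufb9 changed more than Ndufs7.

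Sdhb, the iron-sulphur subunit of succinate dehydrogenase, had peaks of 2800 to 5000 bp in cortex and 8200 to 11000 bp in gastrocnemius, without overlap (1.26 ± 0.11 SE, FDR = 2.92e-09). Its flavoprotein partner Sdha changed less, from a median of 3000 to 4400 bp (0.61 ± 0.13 SE). Cs, citrate synthase, which opens the cycle, had peaks of 3000 to 4800 bp in cortex and 6000 to 12800 bp in gastrocnemius, again without overlap (1.24 ± 0.14 SE, FDR = 1.00e-07). Mdh2, mitochondrial malate dehydrogenase, went from a median of 3800 to 6700 bp and Idh3a, of isocitrate dehydrogenase, from 2800 to 4600 bp.

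Other anchors of the chain were wider as well. Ndufv1, the NADH-binding subunit, was 1.86-fold wider, Uqcrc1 and Uqcrfs1 of complex III 1.82-fold and 1.51-fold, and Cox5a and Cox4i1 of complex IV 1.67-fold and 1.55-fold. Ndufs1, the largest iron-sulphur subunit of complex I, was 1.17-fold wider (3400 against 4000 bp, FDR = 0.0160). It fell below the general shift, and its centred log2 difference was -0.14. The call at Cox4i1 was lost with centred widths (FDR = 0.113).

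Ndufb10 and Ndufb5 of complex I were 2.34-fold and 1.94-fold wider. Other members are named here after their values were seen. Sdhc, a membrane anchor of complex II, had H3K4me3 peaks of 2200, 2400 and 3000 bp in cortex and 4200, 5100 and 14400 bp in gastrocnemius (log2 difference 1.22 ± 0.18 SE, FDR = 6.52e-06). Its groups did not overlap. Sdhd, the other anchor, was 1.49-fold wider, Uqcrb and Uqcrc2 of complex III 1.38-fold and 1.39-fold, and Ndufs4 of complex I 1.21-fold. With centred widths none of these 4 passed (FDR = 0.157, 0.428, 0.441 and 0.487), and Ndufs4, below the general shift, turned to -0.09. Ndufb3 was the 1 member that did not pass, with medians of 3400 and 3500 bp (0.16 ± 0.12 SE, FDR = 0.208).

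**Figure D3:**
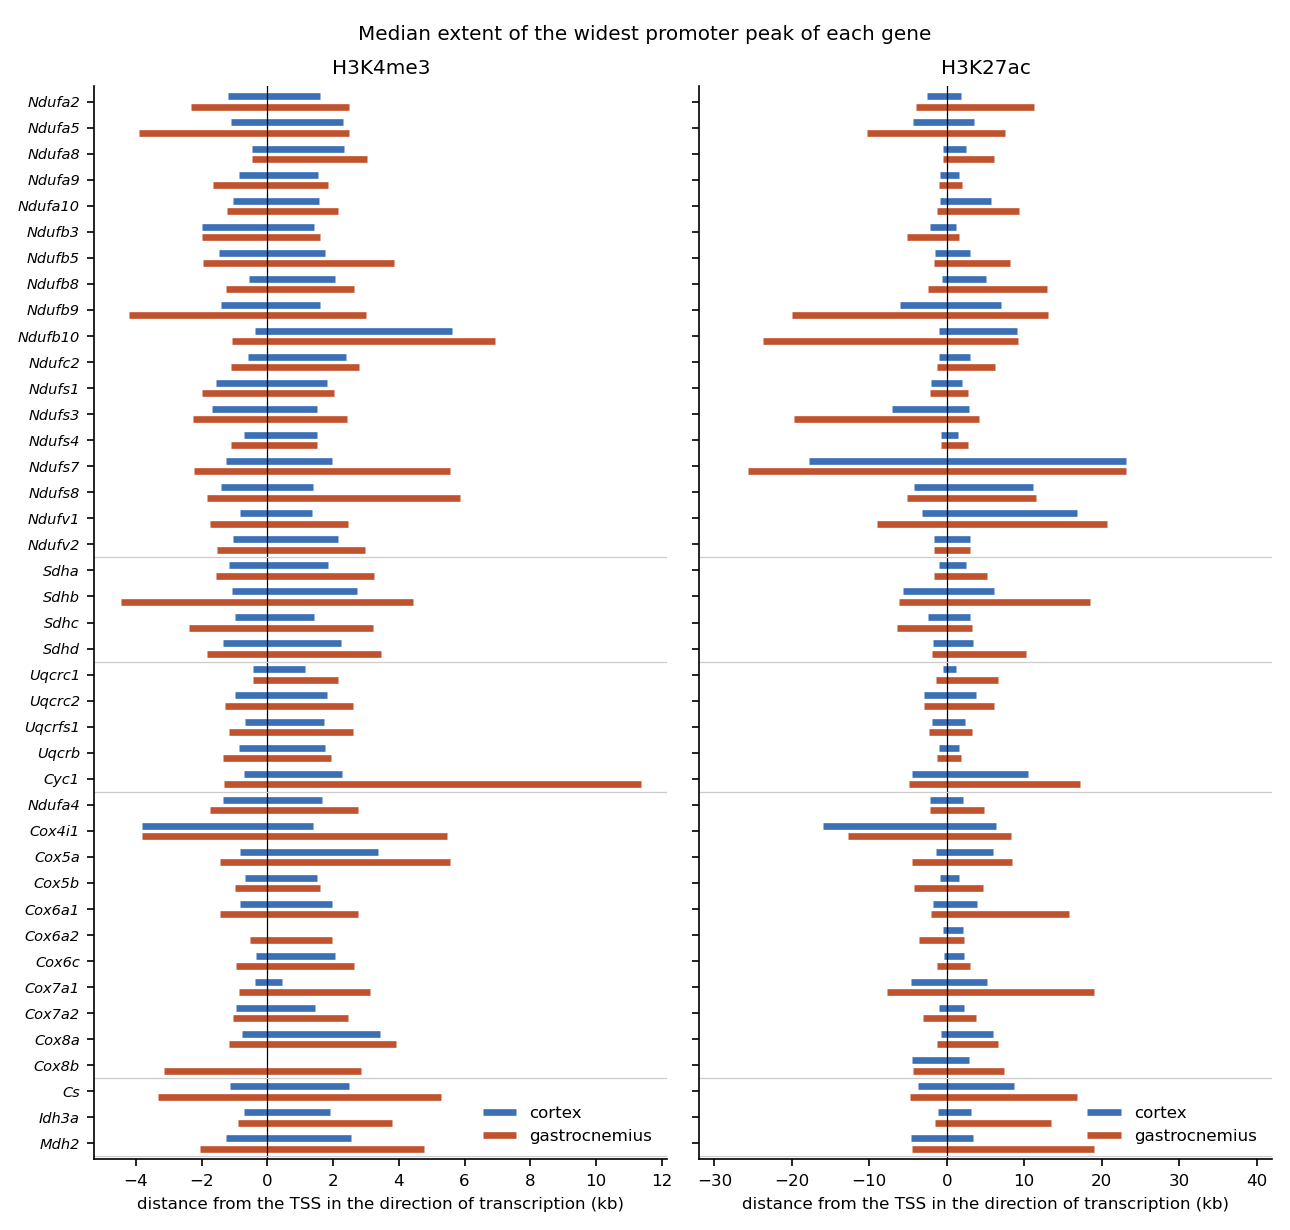
Median extent of the widest promoter peak of each of the 41 members, upstream (negative) and downstream (positive) of the TSS in kb, by tissue, with H3K4me3 left and H3K27ac right on different scales and grey lines between the complexes. Most gastrocnemius bars reach beyond the cortex bars, with the Cyc1 H3K4me3 bar from 3000 to 12500 bp wide. No cortex bar is drawn for H3K4me3 at Cox6a2 and Cox8b, where no peak was called.

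H3K27ac peaks were wider in gastrocnemius at 32 of 40 members and narrower at none (0 also at an unadjusted p under 0.05), against 55.3% of 12951 TSSs wider and 9.69% narrower. The median fold was 1.90 over the members and 1.44 over all TSSs. At least 1.5-fold wider were 29 of 40, against 45.1% of TSSs, with 7.48% narrower. Centring the libraries, which moved the median of all TSSs by -0.62, left 15 members wider and 3 narrower (Ndufa9, Uqcrc2, Cox4i1), against 23.0% and 31.5%. Without the coded libraries 28 members were wider, against 48.2% of TSSs in that fit, and within them alone 7, against 13.3%. Non-overlapping groups were seen at 8 of 40, against 11.5% of TSSs. Uqcrc1, a core protein of complex III, changed most, from 1600, 1600 and 3600 bp to 1600, 8000 and 10000 bp (1.85 ± 0.27 SE, FDR = 7.61e-06). Cox5b of complex IV went from a median of 2400 to 10500 bp (1.81 ± 0.31 SE) and Ndufb10 of complex I from 10200 to 32500 bp (1.72 ± 0.16 SE, FDR = 1.58e-08). Idh3a and Cs were 2.85-fold and 2.83-fold wider, and Mdh2 1.88-fold, the last not passing with centred widths (FDR = 0.322). Sdhc and Sdhd were 2.87-fold and 2.15-fold wider, both without overlap, while Sdhb did not pass (0.56 ± 0.29 SE, FDR = 0.107). Ndufa8 and Ndufa5 of complex I, with Sdhc and Sdhd named after their values were seen, were 3.18-fold and 3.06-fold wider. At Cox4i1, the common form of subunit IV, the H3K27ac peak was as long in both tissues, with medians of 21800 and 21500 bp (0.03 ± 0.19 SE, FDR = 0.906). Spread was larger for this mark: the median coefficient of variation of width over the members was 27.6% in cortex and 35.7% in gastrocnemius, against 12.3% and 22.5% for H3K4me3.

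**Figure D4:**
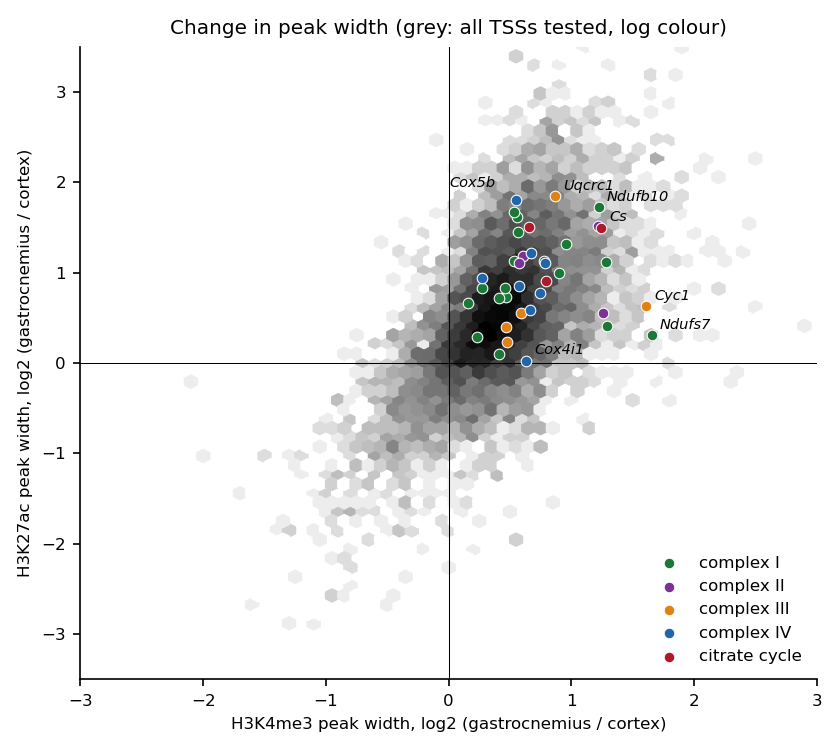
Log2 ratio of peak width, gastrocnemius over cortex, for H3K4me3 (x axis) and H3K27ac (y axis). Coloured points are the 38 members tested in both marks, by complex, and grey hexagons all TSSs tested in both (darker for more, log scale). All members lie right of 0 and above or on 0, with Ndufs7 and Cyc1 farthest right and Uqcrc1 and Cox5b highest.

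The size of the widening was only loosely related between the marks. Across the 38 members tested in both, Spearman's rho between the width ratios was 0.20, and 0.56 across 12100 TSSs; these are descriptions across genes of the same libraries. Cs, Ndufb10, Sdhc and Ndufb9 were over 2-fold wider for both marks, by 2.37, 2.34, 2.33 and 2.44-fold for H3K4me3 and 2.83, 3.30, 2.87 and 2.17-fold for H3K27ac, where Ndufb9 did not pass with centred widths (FDR = 0.176). Ndufs7 and Ndufs8, high for H3K4me3, had H3K27ac widths that did not pass (FDR = 0.336 and 0.274), in domains already 48600 and 15600 bp long in cortex.

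Widening ran mostly downstream of the TSS, and whether it stayed within the gene was not measured. For H3K4me3, the median end of the peak moved from 993 to 1551 bp upstream of the TSS and from 1816 to 2777 bp downstream. The downstream gain was the larger at 26 of 38 members and the upstream gain at 11, while over all TSSs 44.0% gained more downstream. For H3K27ac the downstream median went from 3046 to 7417 bp and the upstream median from 1863 to 2968 bp, with more gain downstream at 27 of 40 members, against 51.1% of TSSs. At Cyc1 the H3K4me3 peak ended 2277 bp downstream in cortex and 11377 bp in gastrocnemius. It held a median of 0 TSSs of other genes in cortex and 2.5 in gastrocnemius. Ndufb9 and Ndufb10 went the other way: H3K4me3 at Ndufb9 went from 1400 to 4200 bp upstream, and H3K27ac at Ndufb10 from 977 to 23777 bp upstream.

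Shared promoters limit what belongs to a member. Another gene starts within 1 kb of the TSS at 15 of 41 members, for example Ndufb9 (Tatdn1), Sdha (Ccdc127), Mdh2 (Styxl1) and Cox4i1 (Emc8). Against 67.0% of all TSSs, H3K4me3 was wider at 23 of 23 tested members with no such neighbour, by a median of 1.59-fold, and at 14 of 15 with one, by 1.49-fold. The part of these neighbours in the widening was not tested. At the 19 members whose median peak held no other TSS in either tissue, 19 were wider, by a median of 1.51-fold. The gastrocnemius H3K4me3 peak held more foreign TSSs than the cortex peak at 4 of 38 members, Cyc1 and Sdhb among them. For H3K27ac this was so at 9 of 40. Of 15 members whose H3K27ac peak held no other TSS, 12 were wider, against 55.3% of all TSSs.

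Reads in the window told a different story from width. H3K4me3 read counts were lower in gastrocnemius at 16 of 38 members and higher at 1, Cox8a (edgeR, FDR under 0.1), against 28.1% and 24.6% of TSSs. For reads in a window, the higher count ran from 0 with the replicate block (0 also at an unadjusted p under 0.05) to 6 in a 2.5 kb window, and was 5 with DESeq2. Shares of all TSSs were not counted for those fits. The coded libraries alone gave 2 lower (Ndufb9, Cs) and 1 higher (Ndufa10, named after its value was seen), against 11.6% and 9.81% of TSSs in that fit. No member reached 2-fold in either direction, by edgeR or DESeq2, also at an unadjusted p under 0.05, against 5.01% of TSSs higher in cortex and 5.07% in gastrocnemius. The drop was greatest at Ndufb9, with a lowest, median and highest count of 48.3, 65.4 and 72.1 in cortex and 23.0, 33.5 and 48.9 in gastrocnemius, nearly without overlap (log2 difference -0.87 ± 0.11 SE, FDR = 1.44e-07). Cs followed with 46.9 ± 5.11 (SD, n = 9) in cortex and 31.4 ± 3.35 (SD, n = 10) in gastrocnemius (-0.58 ± 0.09 SE, FDR = 1.47e-06), then Ndufb5 of complex I (-0.54 ± 0.10 SE). All 3 citrate cycle enzymes and 3 of 4 complex II genes were lower, but 5 of 18 complex I genes. Ndufs1, Uqcrfs1, Cyc1 and Ndufv1 did not pass.

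These counts depend on width by construction. The files give 1 count per peak, which was spread evenly along it, so a longer peak has fewer of its reads near the TSS. Across the 38 members, the log2 ratios of window reads and of H3K4me3 width had a Spearman's rho of -0.67, and across all TSSs tested 0.08. With the whole count of every overlapping peak, H3K4me3 was higher in gastrocnemius at 21 of 38 members and lower at 1 (Ndufa5, named after its value was seen), against 40.8% and 37.6% of TSSs. Of the 16 members lower by window reads, 11 turned sign and 4 more lost the call. At Ndufb9 the log2 difference became 0.09 ± 0.05 SE, at Cs 0.32 ± 0.05, at Sdhb 0.50 ± 0.04, at Ndufs7 1.01 ± 0.24 and at Cyc1 1.11 ± 0.21. A whole-peak count depends on width too: a longer peak adds reads far from the TSS, also those at TSSs of other genes it covers. The sign of the H3K4me3 read difference thus depended on how a peak was counted, and neither count is free of width. Without TMM scaling, which moved the median of all TSSs by -0.30 for H3K4me3 and -0.27 for H3K27ac, 32 members had fewer H3K4me3 window reads in gastrocnemius and 0 more (0 also at an unadjusted p under 0.05), against 61.8% and 11.3% of TSSs.

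H3K27ac window reads were higher in gastrocnemius at 10 of 40 members and lower at 4, against 23.4% and 25.5% of TSSs. Without TMM scaling the counts were 2 higher and 14 lower, against 7.90% and 50.8% of TSSs. The coded libraries alone gave 3 higher (Cox7a1, Cox8b, Cs) and 0 lower (0 also at an unadjusted p under 0.05), against 5.34% and 6.31% in that fit. After the muscle forms Cox8b and Cox7a1, the largest rise was at Ndufb9 (10.3 ± 2.15 against 7.37 ± 2.34, log2 difference 0.49 ± 0.16 SE, FDR = 0.0140), where H3K4me3 window reads were lower. Cs rose from 9.44 ± 1.77 to 12.6 ± 1.42 (0.41 ± 0.10 SE, FDR = 0.00210). Without TMM scaling neither passed, Ndufb9 at 0.19 (FDR = 0.348) and Cs at 0.13 (FDR = 0.358). Lower were Uqcrc1 (-0.53 ± 0.16 SE), Cox5b (-0.52 ± 0.14 SE), Ndufb5 (-0.36 ± 0.12 SE) and Ndufa8, the last named after its value was seen. Only Cox8b reached 2-fold higher, against 1.78% of TSSs, and no member 2-fold lower (0 by DESeq2 too), against 2.08%. Whole-peak counts were higher at 26 of 40 and lower at 2 (Ndufa9 and Cox4i1), against 38.5% and 34.0% of TSSs. Uqcrc1, Cox5b, Ndufb5 and Ndufa8, all 4 of the lower members, then turned to 0.52, 0.78, 0.54 and 0.84, and each passed as higher. Cs had the largest whole-peak difference, 1.71 ± 0.30 SE, a 3.26-fold higher count.

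**Figure D5:**
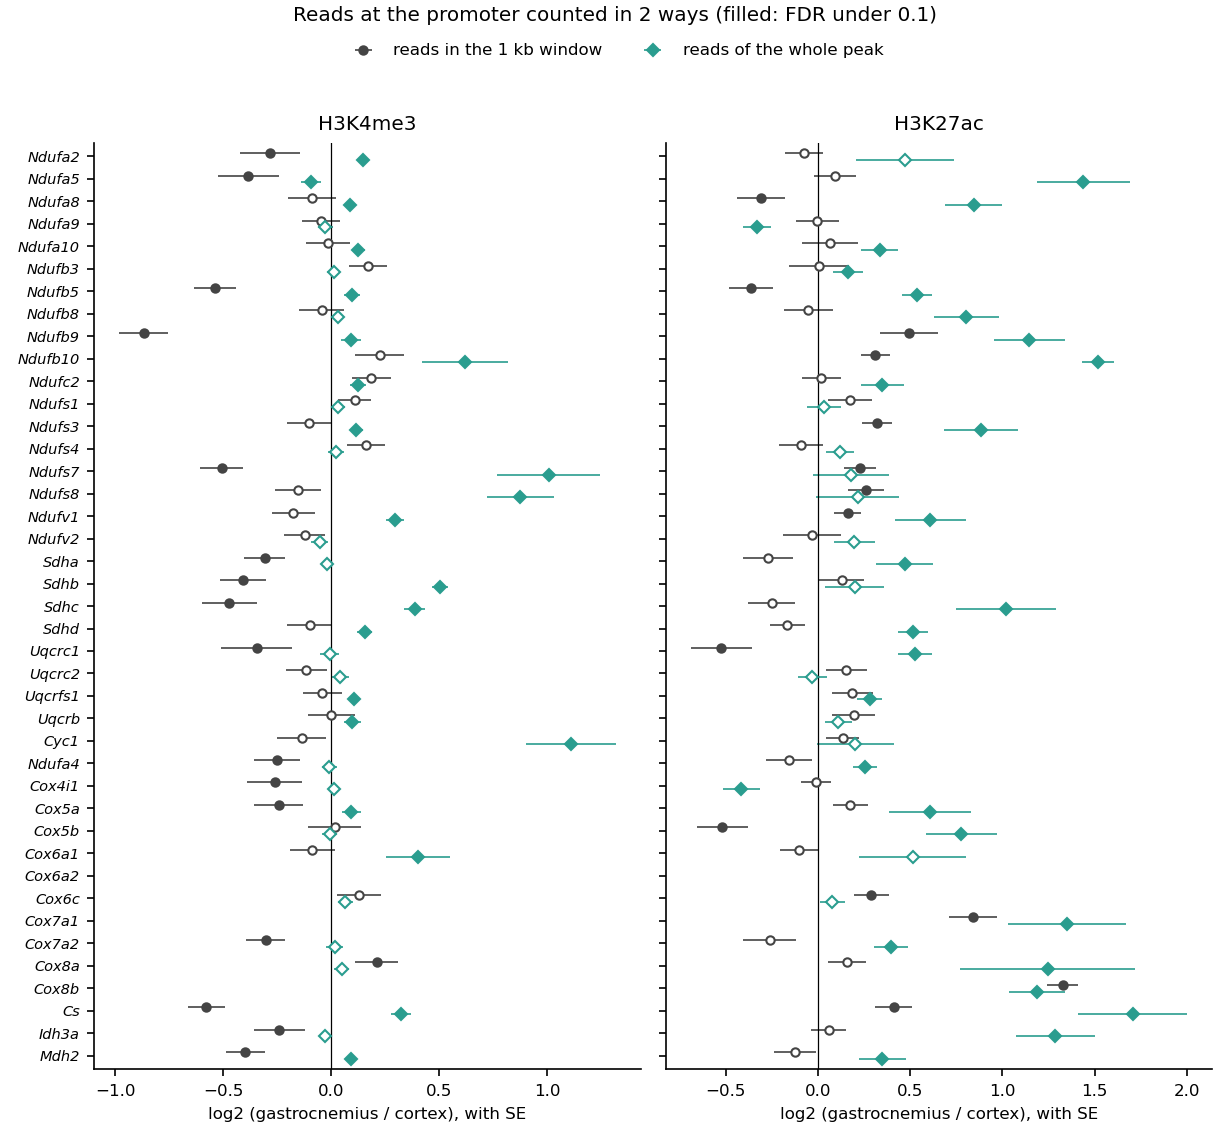
Log2 ratio of reads, gastrocnemius over cortex, with its SE (x axes) for each member (rows, by complex), H3K4me3 left and H3K27ac right. Circles are reads in the window of 1 kb either side of the TSS and diamonds reads of whole peaks; filled symbols have an FDR under 0.1. Most H3K4me3 circles lie left of 0 and most diamonds right of it, with Cs at -0.58 and 0.32.

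Further genes of these pathways are given by counts. Of 39 further autosomal chain and cycle genes, all tested, 36 had wider H3K4me3 peaks in gastrocnemius and none narrower, by a median of 1.58-fold, and 23 passed 1.5-fold, against 67.0% of all TSSs wider and 32.5% past 1.5-fold. Their H3K27ac peaks were wider at 31 and narrower at 1, Cox7a2l, against 55.3% and 9.69% of TSSs. Window reads of H3K4me3 were lower at 12 and higher at 2, Cox4i2 and Suclg2, against 28.1% and 24.6% of TSSs. Of 15 ATP synthase genes (complex V), 15 had wider H3K4me3 peaks, by a median of 1.79-fold, and 12 wider H3K27ac peaks. The lists were neither tested as sets nor compared with the members.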

How the data were processed

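Per the study's methods, BWA mapped the reads to mm10, SAMtools filtered them, and the authors called peaks per library, not pooled, with epic2. The deposited files give, for each peak, a raw count of ChIP reads and a score, on a 200 bp grid and with no normalization. The peak score was used only to rank peaks.

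The TSS was the 5′ end of the curated RefSeq transcripts of each autosomal gene (GRCm38.p6, the assembly of mm10). Each peak's count was shared over the window of 1 kb either side of the TSS by overlap and rounded, and TSSs with a peak in every library of both tissues were tested: 13419 for H3K4me3 and 12951 for H3K27ac. Reads were tested with edgeR 4.0.16 (quasi-likelihood, TMM), log2 widths of the widest overlapping peak with limma 3.58.1, calls with Fisher's exact test (SciPy 1.17.1) and single values with an exact permutation test. An FDR under 0.1 (Benjamini-Hochberg over all TSSs tested) was called, and separately a change of at least 2-fold for reads or 1.5-fold for width. R 4.3.3 and Python 3.11.15 were used.

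The members, gene lists and tests were chosen with earlier results of these data known. Named were the isoform pairs, fixed anchor genes of each complex, the 3 members with the largest called change per direction and measure, and members called in 1 tissue only or with H3K27me3 in at least 3 libraries of a tissue. Libraries of a tissue came from separate mice. The libraries carry animal codes, so cortex and gastrocnemius of a mouse form a pair: correlations of deviations from the group means within a mouse ran from -0.09 to 0.05 for H3K4me3, and no count moved by over 1.5 times with the animal as a block. Alternatives were DESeq2 1.42.0, no TMM, other windows, filters, start sites and peak sets, whole-peak counts, centred widths, blocks and subsets of libraries.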

Additional observations from a re-analysis of the deposited data

Results flagged for a closer look

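In 31 of 200 groups tested (15.5%), the highest or lowest library stood apart from the others of its tissue by Dixon's test on untransformed values. The test flags about 1 in 20 groups of normally distributed values. That rate need not hold for widths on a 200 bp grid, where a flag can be a single grid step. Their part in the fits was not tested one by one. Normalised read counts of H3K4me3 stood apart for Cox5a in gastrocnemius replicate 6 (45.4 against 27.7 to 34.96). Peak widths in bp of H3K4me3 stood apart for Cox5a in gastrocnemius replicate 3 (8800 against 5600 to 7200), Cox8a in cortex replicate 5 (4000 against 4200 to 4400), Cox8a in gastrocnemius replicate 5 (7200 against 4600 to 5400) and Idh3a in cortex replicate 5 (3800 against 2400 to 3000). Also apart by width in bp of H3K4me3 were Ndufa9 in gastrocnemius replicate 3 (5000 against 2600 to 3800), Ndufb10 in gastrocnemius replicate 3 (24600 against 7200 to 13800), Ndufb5 in cortex replicate 9 (3800 against 2600 to 3200) and Ndufb9 in cortex replicate 6 (4400 against 2600 to 3400). Also apart by width in bp of H3K4me3 were Ndufs1 in gastrocnemius replicate 10 (4800 against 3600 to 4200). Peak widths in bp of H3K27ac stood apart for Cox4i1 in gastrocnemius replicate 4 (39800 against 12600 to 25600), Cox6a1 in cortex replicate 8 (28600 against 4200 to 12400), Cox6a2 in gastrocnemius replicate 6 (11000 against 4600 to 6600) and Cox8b in cortex replicate 8 (17000 against 6600 to 10200). Also apart by width in bp of H3K27ac were Cyc1 in gastrocnemius replicate 6 (42800 against 15400 to 26200), Ndufa9 in gastrocnemius replicate 3 (5200 against 1800 to 3600), Ndufb10 in gastrocnemius replicate 3 (55400 against 24000 to 37200) and Ndufb5 in gastrocnemius replicate 4 (15800 against 8800 to 12200). Also apart by width in bp of H3K27ac were Ndufs1 in gastrocnemius replicate 7 (9600 against 4000 to 5600), Ndufs7 in cortex replicate 5 (25600 against 41000 to 52400), Sdha in gastrocnemius replicate 4 (22400 against 4800 to 13000) and Uqcrc1 in cortex replicate 8 (3600 against 1600 to 2400). Also apart by width in bp of H3K27ac were Uqcrc1 in gastrocnemius replicate 9 (1600 against 7800 to 10000), Uqcrfs1 in cortex replicate 4 (2400 against 4000 to 5000) and Uqcrfs1 in gastrocnemius replicate 3 (10600 against 4600 to 7600). Normalised read counts of H3K27ac stood apart for Cox6a2 in gastrocnemius replicate 7 (14.5 against 8.46 to 11.4), Sdhb in gastrocnemius replicate 10 (14.8 against 7.62 to 10.6) and Uqcrc1 in gastrocnemius replicate 9 (22.1 against 9.38 to 12.1). Reads in autosomal H3K27ac peaks numbered 3903965 in cortex replicate 9, against 14279570 to 20972632 in the others. Reads in autosomal H3K27ac peaks numbered 27042958 in gastrocnemius replicate 6, against 15585403 to 20977293 in the others. Reads in autosomal H3K27me3 peaks numbered 18236388 in gastrocnemius replicate 5, against 2994110 to 7544243 in the others.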

How the results depend on the processing

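Counts of members with more H3K4me3 reads in gastrocnemius (1) and in cortex (16) were 0 and 32 without TMM scaling and 21 and 1 with whole-peak counts. The first was 5 with DESeq2, 5 with a peak required in at least 3 libraries, 2 with at least 20 reads, 6 in a 2.5 kb window and 3 with any curated TSS. For H3K27ac (10 and 4) they were 2 and 14 without TMM scaling and 26 and 2 with whole-peak counts. Wider peaks in gastrocnemius and cortex fell from 37 and 0 to 20 and 1 for H3K4me3 with centred widths, and from 32 and 0 to 15 and 3 for H3K27ac. With equally many top peaks, 1 member (Cox6a2) differed in H3K27ac calls. Members with H3K27me3 (2) were 1 at 50% of the window and 4 in a 2.5 kb window. Shares of all TSSs stand above for the fits without TMM, with whole peaks and with centred widths. For the other settings of this paragraph they were not counted.

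The following were chosen after seeing the data. The coded libraries alone, a fit with fewer samples, gave 2 members with fewer H3K4me3 reads in gastrocnemius, against 11.6% of all TSSs in that fit. For H3K27ac they gave 3 members with more reads in gastrocnemius and 0 in cortex, against 5.34% and 6.31%. Wider peaks were called at 4 members for H3K4me3 and 7 for H3K27ac, against 10.7% and 13.3%. Whole-peak counts without TMM gave 21 and 1 for H3K4me3 and 33 and 2 for H3K27ac. The shares of all TSSs in that fit were not counted, so these counts cannot be set against the general shift. Leaving out cortex replicate 9 moved no count by over 1.5 times.

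Replicate numbers share the animal code for 4 of 9 numbers, and the correlation of same-numbered libraries was -0.11 to 0.05 for H3K4me3 and -0.08 to 0.05 for H3K27ac, over 0.1 for none. With the replicate block, members with more H3K4me3 reads in gastrocnemius were 0 and in cortex 15, and no other count moved by over 1.5 times. The shares of all TSSs with that block were not counted.

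Over all members tested, the sign turned with whole-peak counts at 24 of 38 for H3K4me3 and 16 of 40 for H3K27ac, without TMM at 8 and 16, and with centred widths at 4 and 11, called or not. The values below cover only the 25 members named by rule, for which the sign turned, with a call in at least 1 of the fits, in 36 of 874 gene alternatives. The cause was not tested beyond the sharing of reads over a peak. With whole-peak counts, H3K4me3 log2 differences became 0.013 for Cox4i1, 0.093 for Cox5a, 0.40 for Cox6a1, 0.016 for Cox7a2, 0.32 for Cs, 1.11 for Cyc1, 0.089 for Mdh2, 0.094 for Ndufb5, 0.092 for Ndufb9, 1.01 for Ndufs7, 0.87 for Ndufs8, 0.29 for Ndufv1, 0.50 for Sdhb and 0.10 for Uqcrfs1, and H3K27ac differences 0.78 for Cox5b, 0.39 for Cox7a2, 0.35 for Mdh2, 0.54 for Ndufb5, 0.47 for Sdha and 0.52 for Uqcrc1. In a 2.5 kb window H3K4me3 gave 0.023 for Cox7a2, 0.22 for Ndufs8, 0.26 for Ndufv1 and 0.13 for Uqcrfs1. Without TMM it gave -0.30 for Cox5b, -0.11 for Cox8a and -0.21 for Ndufs1, and H3K27ac -0.048 for Ndufs7, -0.0025 for Ndufs8 and -0.12 for Ndufv1. Centred widths gave -0.10 for Cox8a and -0.14 for Ndufs1 (H3K4me3), and -0.59 for Cox4i1, -0.25 for Cox8b, -0.51 for Ndufa9 and -0.062 for Uqcrfs1 (H3K27ac).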
